A study of Mus musculus with 3 samples.

Results

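The antioxidant and redox genes Gpx3, Txnip, Sod2, Gstp1 and Gstm1 were examined in single-cell RNA profiles of pancreatic islets from IRE1αβ-/- mice and an IRE1αfl/fl mouse. These 5 genes were taken by name from the tables that the authors deposited for beta, alpha and delta cells, which list 8237 different genes in all. All 5 were listed for beta cells (of 8193 genes), 2 for alpha cells (of 186, Gstp1 and Gstm1) and 1 for delta cells (of 231, Sod2). The genes were picked with earlier results of these data known.

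Both IRE1αβ-/- mice (knockout) and the single IRE1αfl/fl mouse (control) were NOD/ShiLtJ, a strain that develops autoimmune diabetes spontaneously, and were 5 weeks old. The protocol gives tamoxifen at 10 mg/ml by intraperitoneal injection on 5 days for every sample, control included. Tamoxifen served to activate a Cre recombinase, of a line that no label names, and the labels do not spell out what β in the genotype stands for. IRE1α, encoded by Ern1, is an endoplasmic reticulum stress sensor. Islets were cultured overnight and dissociated before droplet capture, and each unique molecular identifier (UMI) stands for 1 captured transcript.

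Beta cells are known for low levels of several enzymes that remove hydrogen peroxide. Superoxide is turned into hydrogen peroxide by superoxide dismutases, and the peroxide is then reduced by glutathione peroxidases or by peroxiredoxins fed by thioredoxin. Glutathione S-transferases join glutathione to electrophiles such as products of lipid oxidation. Txnip, an arrestin-family protein, binds and inhibits thioredoxin, and its gene is induced by glucose in beta cells. IRE1α has been reported to raise Txnip by cutting a microRNA that represses it.

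Of the 5 genes, Txnip has the best known promoter element in this tissue, the carbohydrate response element, a pair of E-box-like letters bound by the glucose-responsive factor ChREBP. The bases before the transcription start of Txnip and of Arrdc4, a related arrestin gene with the same kind of regulation, are printed because both genes were higher in knockout beta cells (RefSeq, build GRCm38.p6). The Txnip stretch is chr3:96557707-96557956 on the plus strand, and the Arrdc4 stretch is chr7:68749242-68749488 on the minus strand. Capitals mark the matches found.
Txnip: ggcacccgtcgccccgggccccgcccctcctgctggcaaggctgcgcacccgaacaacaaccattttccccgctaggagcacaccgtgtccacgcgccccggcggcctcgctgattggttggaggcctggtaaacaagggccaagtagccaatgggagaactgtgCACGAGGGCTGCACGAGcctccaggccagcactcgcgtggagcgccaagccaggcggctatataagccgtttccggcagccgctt
Arrdc4: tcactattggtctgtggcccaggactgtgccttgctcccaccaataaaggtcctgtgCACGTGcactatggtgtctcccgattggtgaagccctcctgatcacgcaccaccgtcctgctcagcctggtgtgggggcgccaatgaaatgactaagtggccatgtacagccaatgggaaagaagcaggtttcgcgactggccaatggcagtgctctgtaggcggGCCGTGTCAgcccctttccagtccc
Txnip held a relaxed carbohydrate response element, a pair of CACGNG words 5 bases apart, which was searched on both strands and occurred in 16 of 32851 promoter windows of the same length (0.0487%). Arrdc4 did not hold that pair in its window but held 1 palindromic CACGTG E-box, found in 7.15% of windows. Its other capitals are the antioxidant response element core TGACNNNGC read on the opposite strand, found in 12.4% of windows. None of the 5 genes had that core in its window, and the AP-1 letters TGANTCA (7.81% of windows) were found in Gstp1, at 1 position, and in none of the other 4. These matches are letters in a window and do not show binding. A carbohydrate response element was already known for Txnip, so nothing is read from its match there or from its rarity.

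**Figure D1:**
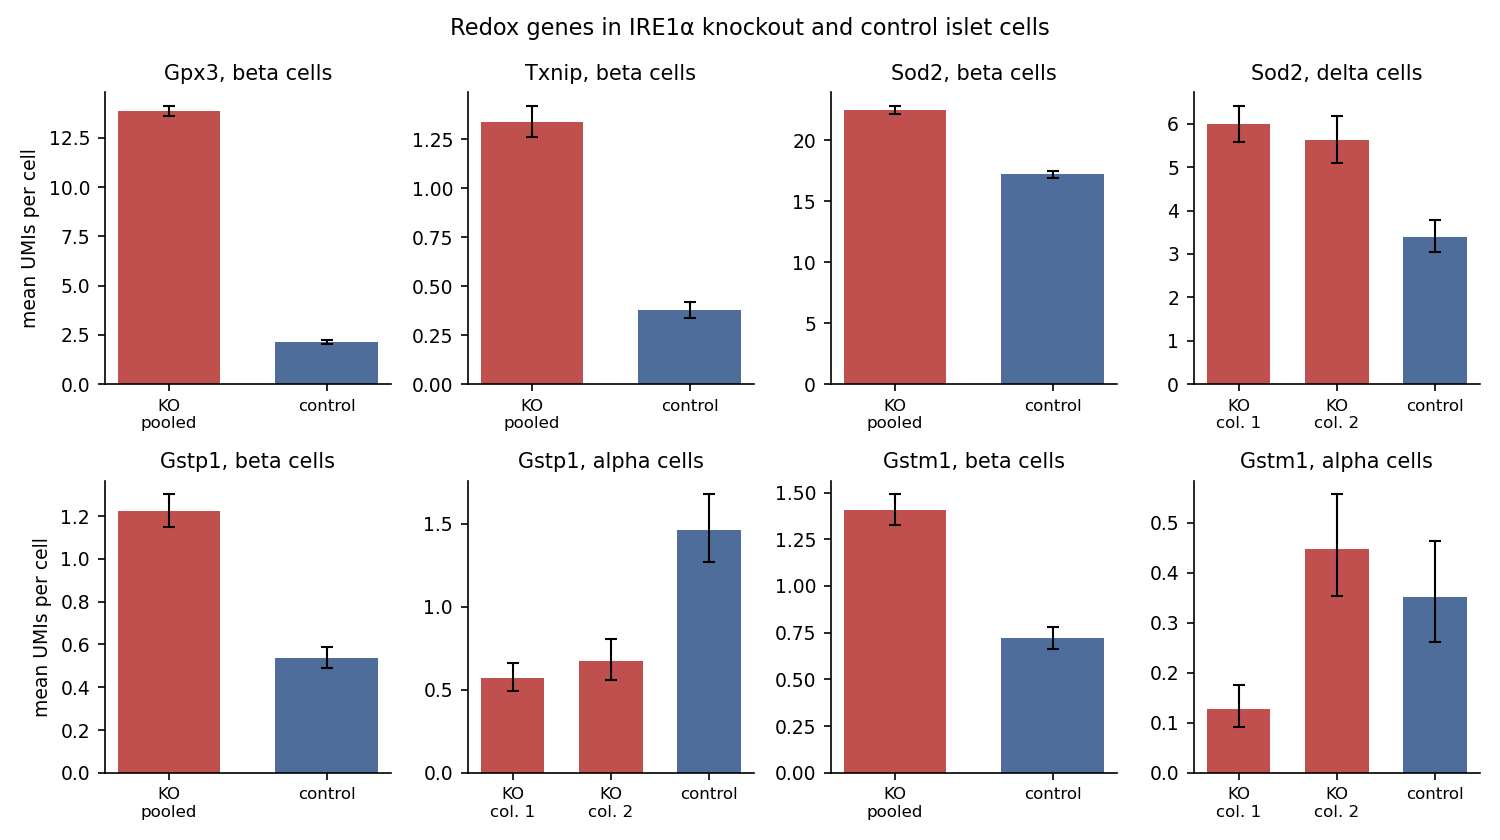
Mean UMIs per cell (y axis) of each gene in each cell type for which it was listed, with knockout columns in red and the control in blue; bars are the deposited means and error bars are exact 95% Poisson intervals, which cover counting error only. Gpx3 stood at 13.9 in knockout and 2.13 in control beta cells, and Gstp1 was lower in both knockout columns of alpha cells.

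For beta cells the authors' deposited table gave 1 mean over the 815 cells of both knockout mice together and 1 mean over 829 control cells. For alpha cells there were 304 and 177 cells in the first and second knockout columns and 142 control cells, and for delta cells 138, 78 and 101. Listed genes summed to 24796 UMIs per knockout beta cell and 31552 per control beta cell, or to 11434 and 9498 without Ins1, Ins2 and Iapp. Ern1 itself was at 0.742 UMIs per knockout beta cell against 0.509 per control beta cell, a ratio of 1.46 [1.29 to 1.66]; the removed exons are not given, so this level does not check the label. All 6 beta-cell markers were listed for beta cells, at a summed 13364 UMIs per knockout cell and 22059 per control cell. Gcg is not among the genes listed for alpha cells, nor Sst among those for delta cells, so these defining hormones could not check the names.

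With 1 control mouse, and with knockout mice pooled in beta cells, no difference in beta cells could be set against the spread between mice, and none in any cell type could be set against the spread between control mice. Ratios are knockout over control UMIs per cell, brackets hold exact 95% intervals for counting error only, and a gene was counted where its fold reached 1.5 in either direction. Of all genes listed for beta cells, 45.7% were counted as higher in knockout cells and 2.47% as lower, and 95% had more UMIs per knockout cell at any size. Of the calls at that fold, 94.9% were higher, and 79.4% after centring on the median of listed genes. The median log2 ratio of all listed genes was 0.54, and values relative to that median are given beside the ratios. Fewer cells of a state and less RNA per cell cannot be told apart in such means. A gene was listed for beta cells only with an adjusted p in the authors' deposited table of at most 0.00998, so a gene of low level had to differ to be listed, and the values describe listed genes only.

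In beta cells all 5 genes had more UMIs per cell in the knockout, and 4 of them were past the fold of 1.5. Gpx3 and Txnip had the highest ratios of the 5, Gstp1 and Gstm1 were also above the median of listed genes, and Sod2 was below it. A share of 4 in 5 stands against the 45.7% counted as higher among all listed genes, and the genes had been chosen with such results in view, so nothing is read from it.

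Gpx3 encodes the secreted, selenium-containing glutathione peroxidase of plasma. It had 13.9 UMIs per knockout beta cell and 2.13 per control beta cell, from 11299 and 1764 UMIs. The ratio was 6.52 [6.20 to 6.85], a log2 ratio of 2.70, or 2.16 relative to the median of listed genes. Among the 1017 other genes whose control level lay within 2-fold of that of Gpx3, 0 had a higher ratio, and their median log2 ratio was 0.24. Among all genes listed for beta cells, 248 had a higher ratio than Gpx3. As Gpx3 was picked with earlier results known, nothing is read from these ranks. By the p-values in the authors' deposited table, from a test that no source used here names, Gpx3 ranked 4 among 8193 genes (adjusted p = 2.15e-154). With knockout mice pooled and a single control mouse, that p-value does not measure the spread between mice. The gene (ENSMUSG00000018339) lies on chromosome 11 at 54902453 to 54910377 on the plus strand and its main transcript has 5 exons (GENCODE M21, mm10).

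Txnip had 1.34 UMIs per knockout beta cell and 0.376 per control beta cell. The ratio was 3.55 [3.13 to 4.04], which is a log2 ratio of 1.29 relative to the median of listed genes. Of the 3235 other genes within 2-fold of its control level 9 had a higher ratio, and of all genes listed for beta cells 538 did. Txnip (ENSMUSG00000038393, chromosome 3, 96557957 to 96561883, plus strand, 8 exons) was listed for neither alpha nor delta cells. The related Arrdc4 had 1.46 UMIs per knockout beta cell and 0.587 per control beta cell, a ratio of 2.49 [2.24 to 2.77]. Mlxipl, which encodes ChREBP, had 0.523 and 0.305 UMIs per knockout and control beta cell, a ratio of 1.71 [1.46 to 2.01]. These 2 were the listed genes of a group of 5 arrestin and glucose-responsive factor genes, and both were past the fold as higher, as were 45.7% of all listed genes. Relative to the median of listed genes, the log2 ratios were 0.78 for Arrdc4 and 0.24 for Mlxipl, so Mlxipl was no longer past the fold after centring.

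Gstp1 encodes the pi-class glutathione S-transferase and Gstm1 a mu-class one. In beta cells Gstp1 had 1.22 UMIs per knockout cell and 0.537 per control cell, a ratio of 2.28 [2.04 to 2.55]. Gstm1 had 1.41 UMIs per knockout cell and 0.719 per control cell, a ratio of 1.96 [1.77 to 2.16]. Relative to the median of listed genes, the log2 ratios were 0.65 for Gstp1 and 0.43 for Gstm1, so Gstm1 was no longer past the fold after centring. Among genes within 2-fold of its control level, 51 of 2942 had a higher ratio than Gstp1 and 99 of 2526 a higher ratio than Gstm1. Among all genes listed for beta cells, 1220 had a higher ratio than Gstp1 and 1726 than Gstm1.

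The counts of Gstp1 carry a limit from its neighbour Gstp2, which lies 2299 bases away on the same strand of chromosome 19. Gstp1 (ENSMUSG00000060803) spans 4035407 to 4037985 and Gstp2 4040285 to 4046023. Of the 50-base words in the main Gstp1 transcript, 62.3% also occur in Gstp2 transcripts, and in its last 300 bases 100% do. Gstp2 itself was listed at 0.0282 UMIs per knockout beta cell and 0.00724 per control beta cell, from 23 and 6 UMIs. How such shared reads were counted is not given in the sources used here, so the Gstp1 values may include or lack reads of Gstp2. For Gstm1 (ENSMUSG00000058135, chromosome 3, 108012255 to 108017973, minus strand) 23.2% of words are shared with other genes, but 0% in the last 300 bases. Gpx3 and Txnip shared 0% over their whole transcripts, and Sod2 1.43%, or 9.16% in the last 300 bases.

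Sod2, the manganese superoxide dismutase of mitochondria, differed least. It had 22.5 UMIs per knockout beta cell and 17.2 per control beta cell, a ratio of 1.31 [1.28 to 1.33]. The log2 ratio of 0.38 was 0.16 below the median of all listed genes, so the direction depended on the scaling: it was -0.16 after centring and 0.73 after scaling to the listed total. Sod2 (ENSMUSG00000006818) lies on chromosome 17 at 13006846 to 13040063.

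**Figure D2:**
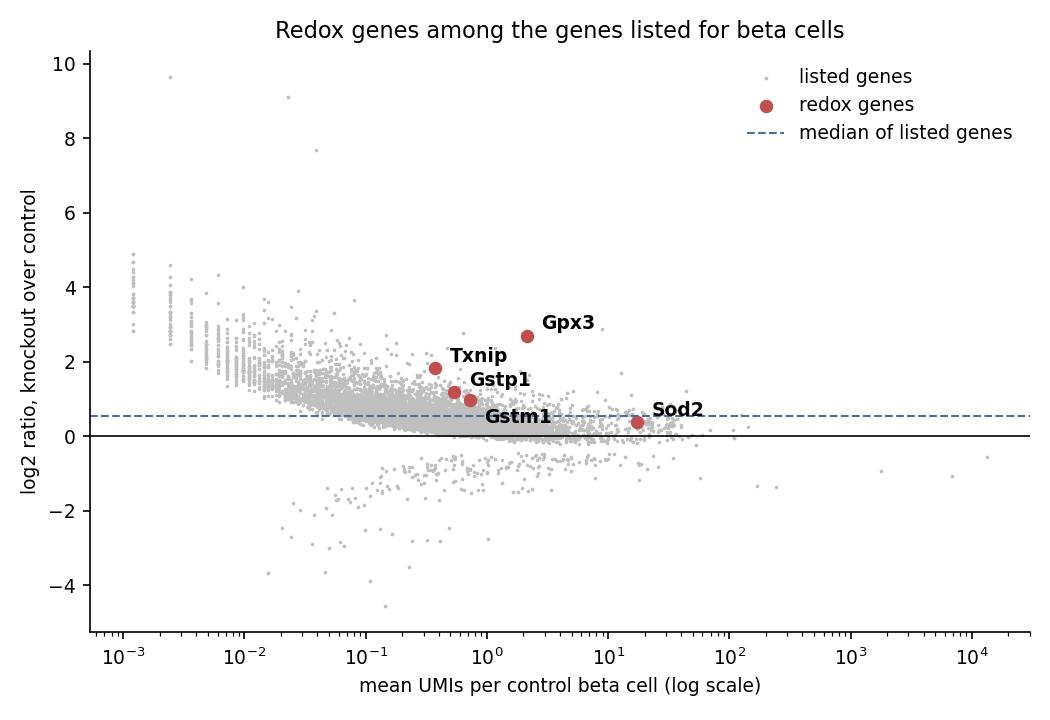
Log2 ratio of knockout over control (y axis) against mean UMIs per control beta cell (x axis, log scale) for genes listed for beta cells; grey points are single genes with UMIs in both groups, red points the 5 redox genes and the dashed line the median of 0.54. Gpx3, at a log2 ratio of 2.70, lies above the genes of its own level, while Sod2, at 0.38, lies under the dashed line.

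Beyond these 5 genes, a list of 107 antioxidant and redox genes in 10 role groups was examined, of which 74 (69.2%) were listed for beta cells, against 44.2% of the genes tested by the authors. The list was written with earlier results of these data known, and the shares are not matched for level, so nothing is read from their difference. Knockout means were above the control for 70 of the 74 and below it for 4, and 33 were past the fold as higher and 1 as lower. Their median log2 ratio was 0.45, against 0.54 for all listed genes. Without the 5 named genes the median of the other 69 was 0.42. Of all genes listed for beta cells, 45.7% were past the fold as higher and 95% were higher at any size. The counts by role that follow stand beside these shares. After centring on the median of listed genes, 12 of the 74 were past the fold as higher and 4 as lower. Of all 8193 genes listed for beta cells, 1324 were then past it as higher and 343 as lower.

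Among glutathione peroxidases, 4 of 6 were listed, all higher in number of UMIs and 3 past the fold. Their median log2 ratio was 0.98, against 0.54 for all listed genes. Gpx2, the gastrointestinal form, had 6.11 UMIs per knockout cell and 2.82 per control cell (2.17 [2.06 to 2.28]). Gpx1, the abundant cytosolic form, had 6.31 and 3.53 UMIs per knockout and control cell (1.79 [1.71 to 1.87]). Gpx4, which reduces lipid hydroperoxides in membranes, was at 11.6 and 11.4 UMIs per knockout and control cell, and its interval of the ratio included 1 (1.01 [0.985 to 1.04]). Relative to the median of listed genes its log2 ratio was -0.52, so its standing depended on the scaling. Gpx4 was listed all the same, so the authors' test called it different.

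The thioredoxin system, to which Txnip belongs, had 12 of 14 genes listed, which had a median log2 ratio of 0.20. Txn1, the cytosolic thioredoxin that Txnip binds, was picked as its partner after its values were seen and had 5.44 UMIs per knockout cell and 5.08 per control cell, a ratio of 1.07 [1.02 to 1.12]. Nxn, nucleoredoxin, was at a ratio of 1.78 [1.34 to 2.37], and the glutaredoxin gene Glrx at 1.01 [0.95 to 1.08]. All 7 peroxiredoxin and sulfiredoxin genes were listed, and 0 were past the fold. They ran from Prdx5 at 1.01 [0.961 to 1.06] to the sulfiredoxin gene Srxn1 at 1.43 [1.33 to 1.55].

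Of the superoxide dismutase and catalase group, 4 of 5 were listed and 1 was past the fold. Catalase (Cat), which breaks down hydrogen peroxide in peroxisomes, had 0.103 UMIs per knockout cell and 0.047 per control cell, a ratio of 2.19 [1.48 to 3.29] resting on 84 and 39 UMIs. Sod1, the cytosolic copper-zinc enzyme, was at 1.24 [1.17 to 1.31].

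The transferases to which Gstp1 and Gstm1 belong had 10 of 24 genes listed, all with more UMIs per knockout cell and 7 past the fold, at a median log2 ratio of 0.81. Gstm7 was at 12.5 [3.97 to 63.6], from 37 and 3 UMIs, and Gsto1, an omega-class enzyme, at 1.07 [0.928 to 1.24]. Genes that make glutathione or NADPH were listed in 9 of 13 cases, all higher in UMIs per cell and 7 past the fold. Their median log2 ratio was 0.65, against 0.54 for all listed genes, of which 45.7% were past the fold as higher. Pgd, which supplies NADPH in the pentose phosphate pathway, led them with 0.805 UMIs per knockout cell and 0.334 per control cell, a ratio of 2.41 [2.09 to 2.78]. Gss, glutathione synthetase, was at 1.95 [1.46 to 2.62], and Gsr, which regenerates reduced glutathione, at 1.30 [1.21 to 1.39].

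Genes of the NRF2 pathway and other defences were listed in 17 of 20 cases, with 16 higher in UMIs per cell, 1 lower and 8 past the fold as higher. Their median log2 ratio was 0.39, below the 0.54 of all listed genes. Oxr1 was at 2.80 [2.06 to 3.86] and Msrb2, a methionine sulfoxide reductase, at 2.36 [1.64 to 3.44]. Park7, the redox-sensing protein DJ-1, was lower at 6.23 UMIs per knockout cell against 6.87 per control cell (0.906 [0.872 to 0.941]), and Sqstm1 was at 1.03 [0.9992 to 1.06]. Relative to the median of listed genes, the log2 ratios were -0.68 for Park7 and -0.50 for Sqstm1. Cyba, a subunit of NADPH oxidase and the only listed gene among 5 oxidase genes, was at 3.88 [3.07 to 4.94].

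The lowest ratios of the list were those of Selenos and Selenok, which encode selenoproteins of the endoplasmic reticulum. Selenos had 1.499 UMIs per knockout cell and 2.64 per control cell (0.568 [0.529 to 0.61]), and Selenok 7.21 and 10.1 UMIs per knockout and control cell (0.714 [0.691 to 0.739]). Both act in the degradation of misfolded endoplasmic reticulum proteins. In the same group of 8 genes, Selenop, a secreted selenium carrier, was at 1.67 [1.53 to 1.82] and Selenoh at 1.46 [1.26 to 1.70].

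**Figure D3:**
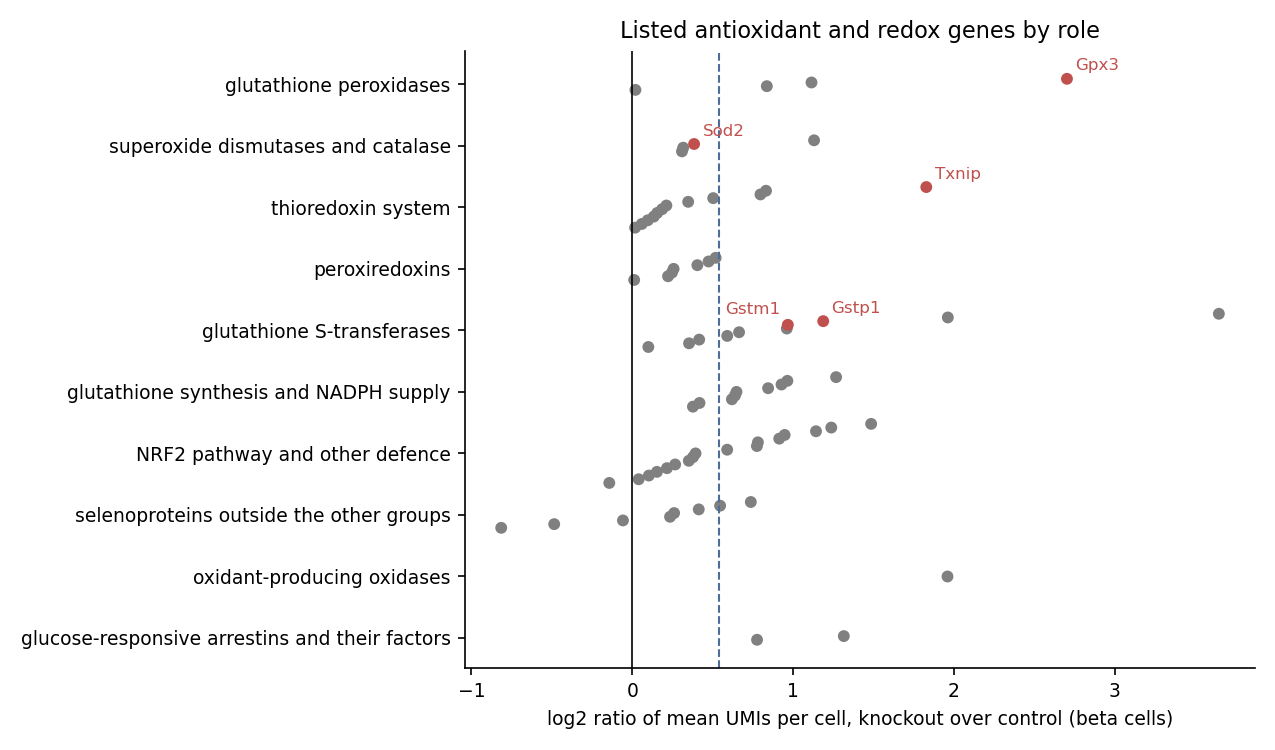
Log2 ratio of knockout over control in beta cells (x axis) for each of the 74 listed redox genes, by role (y axis); each point is 1 gene, the 5 named genes are red, the solid line marks 0 and the dashed line the median of all listed genes, 0.54. Gpx3 and Txnip lie to the right of the other genes of their roles, and only 4 genes lie left of 0.

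Summed markers of the other cell types were also higher in knockout beta cells, except those of immune cells. Of 6 alpha-cell markers 4 were listed, at a summed 113.5 UMIs per knockout cell and 49.2 per control cell. For PP cells, 2 of 2 markers were listed, at 107 and 21.7 UMIs per knockout and control cell, with Ppy at 65.3 and 8.88. Of delta-cell markers 3 of 5 were listed (64.6 and 39.6), of duct markers 4 of 6 (72.1 and 37.3), and of red-cell globins 3 of 4 (22.6 and 0.0639). Reg3b was the only 1 of 8 acinar markers listed and had 0 UMIs in control cells; of 5 mesenchymal markers 4 were listed (0.117 and 0.00844), with Col1a1 and Dcn at 0 in control cells. Endothelial (2 of 4, 0.363 and 0.192) and immune markers (3 of 5, 0.415 and 0.586) were low in both groups. Of these, the immune marker Cd68 was lower in knockout cells (0.0577 and 0.409), as was the endothelial Cdh5 (1 and 13 UMIs), and the other listed ones were higher. Gpx3 had 21.2 UMIs per 100 Ppy UMIs in knockout cells and 24.0 in control cells, a pair chosen after its values were seen. The part of such transcripts in the redox values was not tested.

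In alpha cells, of whose tested genes the authors listed 1.15%, Gstp1 had the opposite direction to that in beta cells. It had 0.572 and 0.672 UMIs per cell in the knockout columns and 1.46 in the control. Both knockout columns lay below the control, which held for 51.1% of all genes listed for alpha cells, and both above it for 37.1%. The knockout mean was 0.622 ± 0.0707 (SD, n = 2), a log2 ratio of -1.23, with ratios of 0.391 [0.318 to 0.48] and 0.459 [0.363 to 0.578] for the first and second columns. By fold it was counted as lower, as were 30.1% of listed genes, while 10.8% were counted as higher. Of the calls in alpha cells 26.3% were higher, and 64.4% after centring. The median log2 ratio of alpha-cell genes was -0.29, and Gstp1 stood 0.94 below it on that scale. A lower ratio was found for 12 of the listed genes. When mice rather than cells were the replicates, edgeR's quasi-likelihood test over all 186 genes, with 1 residual degree of freedom and the spread taken from the knockout mice, gave a Benjamini-Hochberg adjusted p of 0.116 for Gstp1 (unadjusted p = 0.0179). By that test 0% of genes were called higher and 2.15% lower with cell number as offset, and 1.61% higher and 3.23% lower with the listed total.

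Gstm1 in alpha cells lay on both sides of the control. It had 0.128 and 0.446 UMIs per cell in the knockout columns and 0.352 in the control, from 39, 79 and 50 UMIs. The knockout columns differed 3.48-fold from each other, more than their mean of 0.287 ± 0.225 (SD, n = 2) differed from the control. The ratio was 0.364 [0.233 to 0.565] in the first column and 1.27 [0.878 to 1.84] in the second, whose interval included 1. In edgeR's quasi-likelihood test its adjusted p was 0.803. The authors' deposited table nevertheless lists Gstm1 with an adjusted p of 7.68e-07.

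The alpha-cell columns also differed in Sst, the hormone of delta cells, which was at 12.1 and 42.0 UMIs per cell in the knockout columns and 36.8 in the control. There were 1.06 and 1.06 Gstm1 UMIs per 100 Sst UMIs in the knockout columns and 0.957 in the control. This pair was chosen after its values were seen, and Sst was the nearest to Gstm1 of 159 genes compared by their ratios, so a like quotient follows from that choice. For Gstp1 the same quotient was 4.75 and 1.60 in the knockout columns and 3.98 in the control, so this quotient differed between the columns. Rbp4, the other listed delta-cell marker of 5, was at 7.43 and 9.90 in the knockout columns and 15.7 in the control, below the control in both as Gstp1 was, with 7.71 and 6.79 Gstp1 UMIs per 100 Rbp4 UMIs in the knockout columns and 9.34 in the control. Ppy, the 1 listed of 2 PP-cell markers, was at 341.2 and 322.5 in the knockout columns and 427 in the control, also lower in both. The summed beta-cell markers in alpha cells (3 of 6 listed) were at 278 in the knockout mean and 434 in the control. The part of delta-cell, PP-cell or beta-cell transcripts in these 2 genes was not tested.

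**Figure D4:**
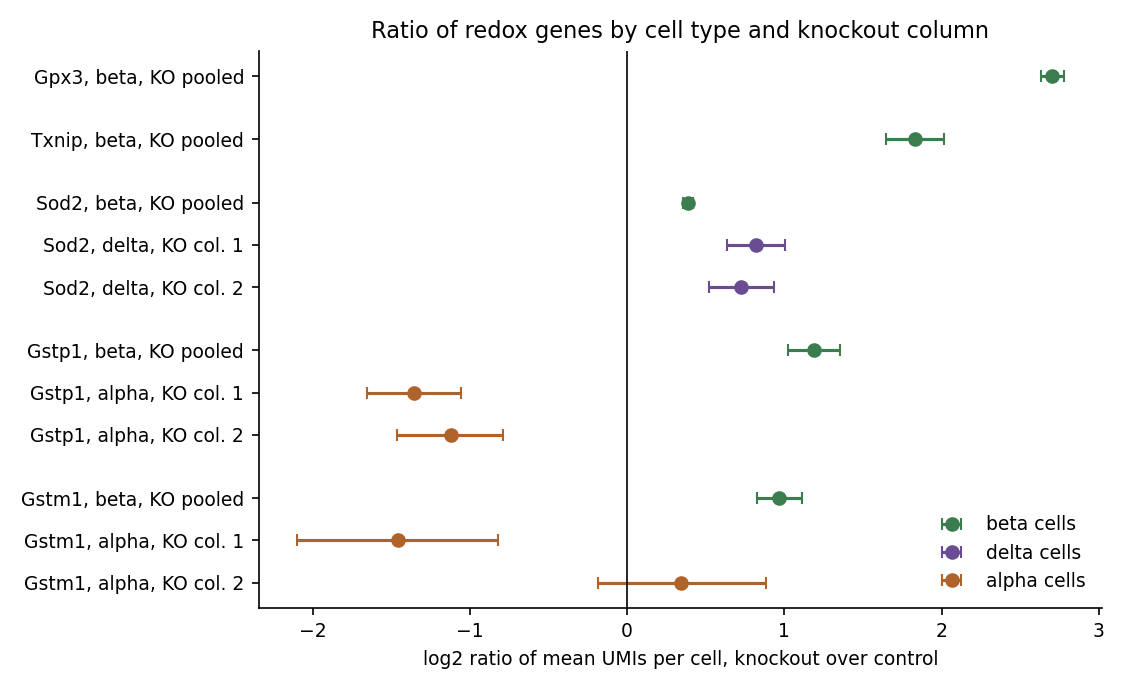
Log2 ratio of knockout over control mean UMIs per cell (x axis) of each gene in each cell type and knockout column (y axis), with exact 95% intervals for counting error; green is beta, orange alpha and purple delta cells. Gstp1 lies right of 0 in beta cells (1.19) and left of 0 in both columns of alpha cells (-1.36 and -1.12), and the columns of Gstm1 in alpha cells lie apart (-1.46 and 0.34).

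Gstp1 had its highest and its lowest level in the control. Ordered from high to low, they were 1.46 in control alpha cells, 1.22 in knockout beta cells, 0.672 and 0.572 in the knockout columns of alpha cells, and 0.537 in control beta cells. The Poisson intervals of neighbours in that order overlapped, except between knockout beta cells and the second knockout column of alpha cells. Gstm1 was highest in knockout beta cells (1.41), then in control beta cells (0.719), and was below both in every alpha-cell column. These levels are UMIs per cell with no scaling for depth, and the same control mouse stands in all tables.

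In delta cells, Sod2 was higher in both knockout columns. It had 5.99 and 5.62 UMIs per cell in the knockout columns and 3.40 in the control, from 826, 438 and 343 UMIs. The columns agreed within counting error with each other, and both intervals lay above that of the control. The knockout mean was 5.80 ± 0.262 (SD, n = 2), a ratio of 1.71 and a log2 ratio of 0.77. Both knockout columns were above the control for 71.4% of all genes listed for delta cells, and both below it for 17.7%; 41.1% were past the fold as higher and 16% as lower, among the 1.5% of tested genes that the authors listed. Of these calls 72.0% were higher, and 52.3% after centring. Relative to the median of 0.42, the log2 ratio of Sod2 was 0.35. In edgeR's quasi-likelihood test over the 231 genes, Sod2 had a Benjamini-Hochberg adjusted p of 0.0205, with 12.1% of genes called higher and 9.52% lower. With the listed total as offset the adjusted p was 0.00731, with 35.5% called higher and 3.46% lower. Since the authors had chosen these genes on the same cells, such p-values are too small.

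Sod2 had more UMIs per knockout cell in both cell types for which it was listed, with log2 ratios of 0.38 in beta cells and 0.77 in delta cells; whether these differ was not tested. After centring on the median of each table the directions parted, at -0.16 in beta cells and 0.35 in delta cells. Control levels were 17.2 UMIs per beta cell and 3.40 per delta cell. Of alpha-cell markers, 3 of 6 were listed for delta cells and summed to 116 UMIs per cell in the knockout mean and 14.1 in the control, nearly all of it Gcg, at 159 and 63.5 in the knockout columns and 10.0 in the control. Of the other two, Ttr was higher (3.47 in the knockout mean, 1.01 in the control) and Gc lower (1.39 and 3.12). There were 3.76 and 8.84 Sod2 UMIs per 100 Gcg UMIs in the knockout columns and 34.0 in the control. Of 5 delta-cell markers, Rbp4 alone was listed, at 76.6 in the knockout mean and 137 in the control. Of 6 beta-cell markers, Iapp alone was listed, at 797 and 698 in the knockout columns and 1825 in the control. The part of such transcripts in the Sod2 values was not tested.

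The remaining redox genes listed outside beta cells were few. In alpha cells these were Prdx1 (4.17 and 5.18 UMIs per cell in the knockout columns, 6.33 in the control), Ftl1, the ferritin light chain (22.4 and 21.3 against 30.6), and Selenok (4.91 and 4.84 against 7.10), so that 5 of 107 genes were listed and all 5 were lower in the mean, as were 106 of all 186 genes listed for alpha cells. In delta cells Fth1, the ferritin heavy chain, had 19.1 and 18.7 UMIs per cell in the knockout columns and 16.2 in the control. Prdx1 and Ftl1 had more UMIs per knockout cell in beta cells (log2 ratios of 0.26 and 0.15), and Selenok fewer in both cell types. Relative to the median of each table, Prdx1 was at -0.28 in beta cells and -0.15 in alpha cells, and Ftl1 at -0.39 and -0.20, so that their directions were no longer opposite.

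Genes whose pattern lay nearest were sought by the distance between log2 ratios. For Gstm1, over 3 ratios and 159 genes listed for both beta and alpha cells, they were Sst (distance 0.35), Igsf8 (0.42) and Id2 (0.81). For Gstp1 they were Itih2 (0.57), the delta-cell marker Rbp4 (0.61) and Fam19a1 (0.73). For Sod2, over 3 ratios and 204 genes listed for beta and delta cells, they were Tm4sf4 (0.20), Ptprf (0.21) and Tut7 (0.24). For genes listed for beta cells alone, the nearest at a like control level were Cldn4, S100a6 and Hist1h1c to Gpx3 (0.59 to 1.07 away) and Zfp36, Lmo1 and Rasgrf2 to Txnip (0.033 to 0.114 away).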

How the data were processed

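Islet cells of 2 knockout mice and 1 control mouse were profiled; per the submitters' processing notes, Cell Ranger 3.0.0 and build mm10 were used. How cells were filtered, typed and tested, and how doublets and free RNA were treated, is not given in the sources used here. The authors deposited, per cell type, a signal value per gene and column, the mean UMIs per cell without scaling for depth: times 1 whole number (the cell number) every value gave whole UMIs within 0.001, for at least 99.99% of genes in each column. The authors' deposited p-values and adjusted p-values were used only to describe the listing, including the rank of Gpx3 and the entry of Gstm1 in it. From q times rank over p, the authors tested 18527 genes in beta cells, 16154 in alpha cells and 15393 in delta cells. In the alpha table the header names of the p-value, adjusted p and symbol columns do not match what they hold, and these were read by content. Knockout columns could not be tied to a mouse and are called first and second; no value column was left unused (0).

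No pseudocount entered the ratios, and the knockout mean of alpha or delta cells weights both columns equally. Intervals (95%) are exact, by Clopper-Pearson for a ratio and by Poisson for a level, cover counting error only, and were computed with Python 3.11.15 and scipy 1.17.1. edgeR 4.0.16 (R 4.3.3) was run on whole UMIs recovered for alpha cells and for delta cells, as an alternative. Its offset was either the log cell number or the log UMI total of listed genes. A run on simulated data used larger changes than those of Sod2 and Gstp1, so it does not show how the test performs on these genes. In beta cells the pooled columns leave no residual degree of freedom. Named were the 5 genes, up to 2 highest and 2 lowest ratios per role group (some not printed) and the 3 nearest patterns. Txn1, Selenom, Selenot, Selenof and the markers stand outside that rule. The members and lists were chosen with earlier results of these data known. Coordinates are from GENCODE M21, promoter sequences from RefSeq (GRCm38.p6); a promoter window has 250 bases before and 50 after the start, and exon bases are not printed.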

Additional observations from a re-analysis of the deposited data

Results flagged for a closer look

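Gstp1 had more UMIs per knockout cell in beta cells and fewer in both knockout columns of alpha cells; its log2 ratio in beta cells minus that in alpha cells was 2.42. Prdx1 and Ftl1 also had opposite directions in beta cells and in both knockout columns of alpha cells, with differences of 0.70 for Prdx1 and 0.64 for Ftl1 on the log2 scale. Relative to the median of each table, Prdx1 (-0.28 in beta cells, -0.15 in alpha cells) and Ftl1 (-0.39 and -0.20) no longer had opposite directions, and Gstp1 still had (0.65 and -0.94). These differences were not tested, since beta cells of both knockout mice were pooled and the tables share the control mouse.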

How the results depend on the processing

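Counts of the 5 genes past the fold in beta cells were 4, and between 3 and 5 under a fold of 2, centring on the median of listed genes, both scalings to the listed total, a pseudocount and a filter at 0.1 UMIs per cell. The 34 redox list genes past the fold in beta cells became 13 at a fold of 2, 16 after centring (12 higher, 4 lower), 54 after scaling to the listed total (all higher) and 21 when Ins1, Ins2 and Iapp were left out of that total (19 higher, 2 lower). Of all 8193 genes listed for beta cells, 3741 were past the fold as higher and 202 as lower. These became 1626 and 100 at a fold of 2, and 1324 and 343 after centring. After scaling to the listed total they were 6816 and 112, and without Ins1, Ins2 and Iapp in that total 2104 and 229. The share of higher calls among all calls was 94.9%, and 79.4% after centring. In alpha cells 1 member, Gstp1, and 1 list gene were past the fold. Without the first or the second knockout column there were 1 to 2 members and 1 to 3 list genes, Gstm1 joining when the second column was left out. Of all 186 genes listed for alpha cells, 20 were past the fold as higher and 56 as lower. These became 25 and 49 without the first column, and 21 and 64 without the second. By edgeR's quasi-likelihood test 0 members and 0 list genes were called in alpha cells with either offset (at an unadjusted p under 0.05, 1 member with either offset, and 3 list genes with cell number or 1 with listed total); the adjusted p of Gstp1 was 0.116 with cell number and 0.218 with listed total as offset. In delta cells Sod2 was past the fold, and 0 members and 0 list genes were at a fold of 2 or after centring. After scaling to the listed total 2 list genes (Sod2 and Fth1) were past it, and 2 were called by edgeR with listed total as offset, where Sod2 had an adjusted p of 0.0073. Of all 231 genes listed for delta cells, 95 were past the fold as higher and 37 as lower. These became 47 and 15 at a fold of 2, and 46 and 42 after centring. After scaling to the listed total they were 146 and 17. With listed total as offset, edgeR called 82 of the 231 higher and 8 lower. Of the members in more than 1 table, 2 had opposite directions in the mean (Gstp1 and Gstm1), 1 when every knockout column had to be opposite, 1 to 2 without either column, 3 after centring on the median (Sod2 joining, and Gstm1 at -0.00037 in alpha cells) and 2 under both scalings to the total; the alternatives for this count were chosen after seeing the data. Of the single-gene log2 ratios, 29 of these alternatives stayed within the interval or spread and 23 did not, and 0 of those past the fold changed sign. No paired analysis was possible because knockout columns carry no number shared with the control. Depth limits Gstm1 in alpha cells (39 to 79 UMIs per column) and Gstm7.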
